A study of Mus musculus with 4 samples.

Results

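TRP channels are cation channels of the cell membrane, and several of them let sensory neurons respond to heat, cold and irritant chemicals. The set described here is 9 channel genes chosen by name, Trpv1, Trpv2, Trpv4, Trpa1, Trpm3, Trpm4, Trpm7, Trpm8 and Trpc1, out of 48431 genes in the deposited table, in which each of these symbols occurs once. The samples were ribosome footprint libraries, short mRNA pieces protected by ribosomes, from the dorsal root ganglia (DRG) of female wild-type SW mice. All 4 libraries came from mice given paclitaxel, a microtubule-stabilising chemotherapy drug that can cause painful neuropathy, at 4 mg/kg by intraperitoneal injection, 4 times on alternate days. They form 1 group with replicates 1 to 4. Untreated mice and RNA abundance libraries were not analysed here, so no value is an effect of paclitaxel or a translational efficiency. The sources used here do not give the age of the mice, nor whether each replicate was a separate animal or a pool. The p-values thus speak only of these 4 libraries, whose spread may be technical. Those from limma also rest on a prior variance estimated from all tested genes.

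In sensory ganglia, heat and capsaicin open TRPV1, mustard oil and other reactive irritants open TRPA1, and cold and menthol open TRPM8. TRPM3 is a further heat-activated channel and responds to the steroid pregnenolone sulfate. The current through these channels depolarises the nerve ending, and inflammatory signals acting through G proteins and kinases can sensitise them. The other members have wider roles: TRPV4 responds to osmotic swelling and warmth, TRPM4 is opened by intracellular calcium, TRPM7 joins a channel to a kinase and passes magnesium, TRPC1 is a subunit of receptor- and store-operated channels, and TRPV2 is a calcium-permeable channel found in neurons and many other cells.

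Depth ranged from 5731508 to 14633420 assigned reads per library, and 3 reads, the limit that a count of 0 allows, stood at 0.205 to 0.523 CPM (reads of a gene for every 1000000 reads assigned in its library). Detected means that each of the 4 libraries had at least 1 CPM, which held for 13558 of the 22243 genes with a coding sequence. All 10 pan-neuronal and all 7 nociceptor markers were detected, with summed levels of 8563 to 10110 CPM and 4041 to 4744 CPM. All 6 myelinating Schwann cell markers (12450 to 19260 CPM), all 5 satellite glia markers (6773 to 7878 CPM) and all 5 skeletal muscle markers (942.7 to 4129 CPM) were detected too, so the libraries held RNA of several tissues. Because these are bulk samples, fewer cells of a type and less RNA per cell cannot be told apart.

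The 9 coding sequences run from 756 codons in Trpv2 to 1863 codons in Trpm7. Since longer sequences collect more reads, levels are compared between genes as CPM per kilobase (kb) of the longest annotated coding sequence. The start of the coding sequence is shown for the 3 classical sensors and for Trpc1, the member that differed most between libraries. Each stretch is 30 bases, as long as a footprint of the 28 to 34 nt cut from the gel, read 5′ to 3′ from GENCODE M21 transcripts on GRCm38, with the start codon in capitals. None of the 4 stretches occurs in a transcript of another annotated gene.
Trpv1 (chr11:73238259-73238288, plus strand): ATGgagaaatgggctagcttagactcggat
Trpa1 (chr1:14918806-14918835, minus strand): ATGaagcgcggcttgaggaggattctgctc
Trpm8 (chr1:88318970-88318999, plus strand): ATGtccttcgagggagccaggctcagcatg
Trpc1 (chr9:95749858-95749887, minus strand): ATGggggccccgcctccgtctcctggcctg
The same held along the whole coding sequence for most members. For Trpv1, Trpv2, Trpv4, Trpa1, Trpm4, Trpm7 and Trpc1, 100% of the 30-base words of the coding sequence occurred in no other annotated gene. The share was 91.4% for Trpm3 and 89.8% for Trpm8, whose shared words lie in genes annotated on the opposite strand. One of these, 4930453O03Rik opposite Trpm8, stood at 5.22 ± 1.38 CPM (SD, n = 4), and whether reads were counted by strand was not given, so its reads and those of Trpm8 cannot be told apart there. Opposite Trpm3, Gm27151 stood at 2.06 ± 0.809 CPM. Along the whole transcript of Trpv2, untranslated parts included, 94.9% of the words occurred in no other annotated gene. The remaining words were shared with 1885 other genes. Whether reads over untranslated parts were counted is unknown.

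All 9 members were detected, with mean levels of 8.87 CPM in Trpv4 to 108.7 CPM in Trpv2. Set against the median of 14128 tested genes in each library, 4 members lay above it and 4 below, and Trpc1 passed in neither direction (limma with Benjamini-Hochberg adjustment over all tested genes, adjusted p threshold 0.05). The test calls 92.4% of all tested genes, 46.1% above the median gene and 46.3% below. The members' counts are therefore near this background. The member levels had a median log2 difference of 0.51 from the median gene, which itself stood at 13.9 ± 0.779 CPM per kb. Folds of the median gene and folds between members come from mean log2 differences, not from ratios of mean CPM per kb. Against the median of coding genes at 10 CPM or more, 2 members, Trpv2 and Trpv1, lay above and 5 below. Of the 14128 tested genes, 4368 lay above that median and 8827 below. Without length the log2 differences from the median gene were 2.44 for Trpv2, 2.34 for Trpv1, 2.12 for Trpa1 and 1.75 for Trpm8, and with merged exons as length, untranslated parts included, 2.45, 2.63, 2.2 and 1.68, all still called above.

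Trpv1 (ENSMUSG00000005952.15, chromosome 11, 73234292 to 73261242, plus strand, GRCm38), the capsaicin and heat receptor gene, had 563, 1009, 1425 and 1049 reads in replicates 1 to 4. Its level was 39.03, 43.3, 38.7 and 39.98 CPM per kb, a mean of 40.3 ± 2.11 (SD, n = 4). The 4 libraries were close to each other and all far above the median gene. The level was 2.83-fold that of the median gene (log2 1.5 ± 0.14, limma adjusted p = 2.3e-09, higher in 4 of 4 libraries), at the 74.1 to 78 percentile of tested genes.

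Trpa1 (ENSMUSG00000032769.4, chromosome 1, 14872648 to 14918862, minus strand), the irritant receptor gene, had 23.4, 26.1, 24.3 and 29.6 CPM per kb, with replicate 4 highest. The mean was 25.8 ± 2.71, and the level was 1.81-fold that of the median gene (limma adjusted p = 1.4e-06). Trpm8 (ENSMUSG00000036251.16, chromosome 1, 88277661 to 88389293, plus strand), the cold and menthol receptor gene, had 18.8, 24.6, 19.8 and 18.4 CPM per kb, with replicate 2 highest. Its mean was 20.4 ± 2.86, and its level was 1.43-fold that of the median gene (limma adjusted p = 2e-04). The margins of both depend on the genes compared. Among genes at a mean of 5 CPM or more, Trpm8 differed from the median gene by a log2 difference of 0.02 (limma adjusted p = 0.81). Against coding genes at 10 CPM or more, the log2 difference was 0 for Trpa1 (limma adjusted p = 0.97) and −0.34 for Trpm8, which then lay below (limma adjusted p = 0.0035).

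Within each library, the 3 classical sensors kept one order, Trpv1 above Trpa1 and Trpa1 above Trpm8. Trpv1 exceeded Trpa1 by log2 differences of 0.74, 0.73, 0.67 and 0.44 in replicates 1 to 4, and their ranges did not overlap. That is 1.56-fold (limma adjusted p = 4.6e-06). Trpv1 exceeded Trpm8 1.98-fold, by 0.99 ± 0.13 on the log2 scale (limma adjusted p = 2.3e-11), again with no overlap. Trpa1 exceeded Trpm8 by 0.32, 0.08, 0.30 and 0.68, which is 1.27-fold (limma adjusted p = 0.025), but their ranges overlapped, and the call was lost without replicate 1, 3 or 4 (limma adjusted p = 0.076, 0.085 and 0.29). With 4 libraries an exact 2-sided sign-flip permutation test cannot go below 0.13, which is the value for each of these 3 pairs. Trpa1 or Trpm8 enters every difference of its fit, so the noise of 1 member is shared by all genes there and the limma p-values depend on how the prior variance is set. A moderated t test was also computed outside limma, a choice made after the data were seen. It used the sum of both genes' prior variances from limma's fit of levels. Its adjusted p was 6.8e-05 for Trpv1 over Trpa1, 1.6e-06 for Trpv1 over Trpm8 and 0.014 for Trpa1 over Trpm8.

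Trpm3 (ENSMUSG00000052387.15, chromosome 19, 22139046 to 22995410, plus strand), the further heat sensor gene, stood below Trpv1, Trpa1 and Trpm8 in every library. It had 10.2, 9.93, 8.71 and 10.01 CPM per kb, a mean of 9.72 ± 0.680, and all 4 libraries lay below the median gene (0.686-fold, limma adjusted p = 8.9e-05). Trpv1 exceeded it 4.13-fold and Trpm8 exceeded it 2.08-fold. The gene spans 856365 bp and has 24 annotated transcripts, and as CPM without length its log2 difference from the median gene turned to 1.34 (limma adjusted p = 1.5e-12). With every gene of at least 1 read compared, it was 0.28 (limma adjusted p = 0.011). Its place below the median gene therefore rests on both the length used, 5.193 kb, and the genes compared.

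Trpv2 (ENSMUSG00000018507.16, chromosome 11, 62574486 to 62600515, plus strand) had the highest level of the 9. Its 47.7, 49.6, 47.0 and 47.6 CPM per kb were the closest set of values, relative to their mean, with a mean of 48.0 ± 1.11. Trpv2 was 3.37-fold the median gene (limma adjusted p = 3.4e-10). It exceeded Trpv1 by 0.29, 0.19, 0.28 and 0.25 on the log2 scale, a 1.19-fold difference with no overlap of ranges (limma adjusted p = 0.015). The call was lost without replicate 1 or 4 (limma adjusted p = 0.069 and 0.066), and as CPM without length (log2 0.10, limma adjusted p = 0.26). With merged exons as length, untranslated parts included, the difference turned to −0.18 (limma adjusted p = 0.058).

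**Figure D1:**
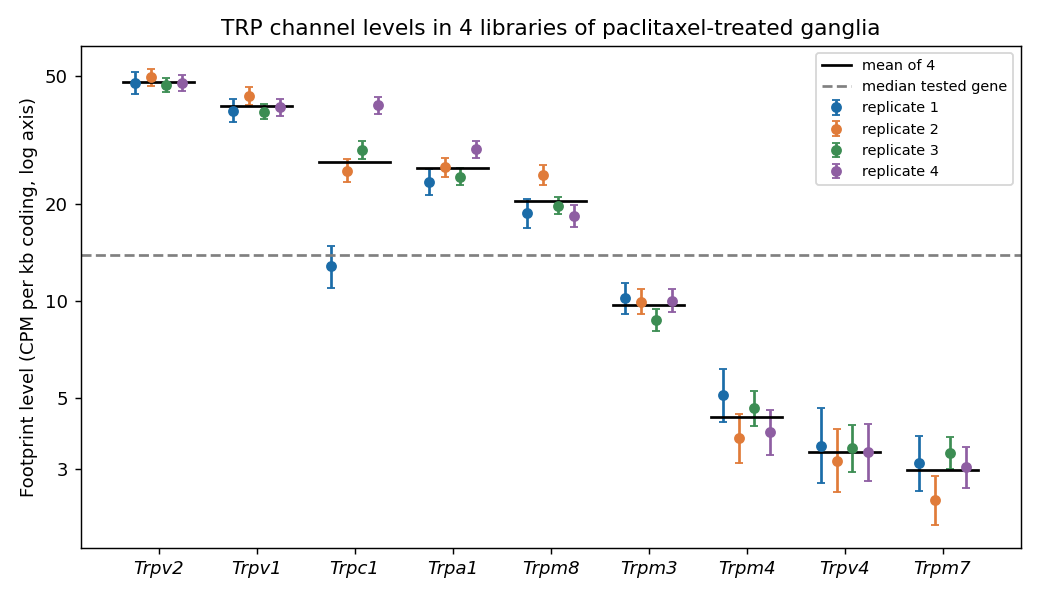
Level of each member in CPM per kb of coding sequence (log axis), 1 point per library with its 95% Wilson interval, which covers counting error only, a bar at the mean of 4, and a dashed line at the median tested gene (13.9 CPM per kb). Trpv2 and Trpv1 lead, Trpc1 spans 12.8 to 40.6, and Trpm4, Trpv4 and Trpm7 lie under 6 in all libraries.

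The other 3 members stood below the median gene in all 4 libraries. Trpm4 (ENSMUSG00000038260.10, chromosome 7, 45302632 to 45333780, minus strand), the calcium-activated channel gene, had 5.08, 3.74, 4.64 and 3.90 CPM per kb, on 106 to 247 reads. Trpv4 (ENSMUSG00000014158.11, chromosome 5, 114622152 to 114658421, minus strand), the osmosensor gene, had 3.54, 3.18, 3.48 and 3.38 CPM per kb. Trpm7 (ENSMUSG00000027365.14, chromosome 2, 126791565 to 126876230, minus strand), the channel-kinase gene, had 3.12, 2.40, 3.36 and 3.04 CPM per kb. They were 0.311-, 0.251- and 0.213-fold the median gene, between the 13 and 24.1 percentile of tested genes in single libraries. These distances depend on length: as CPM without it, the log2 difference was −0.31 for Trpm4, −1.10 for Trpv4 and −0.24 for Trpm7, against −1.68, −1.99 and −2.23 per kb, with all 3 still called below. Trpv1 exceeded them 9.09-, 11.3- and 13.3-fold in the same order. Trpv4 had 53 to 133 reads per library. Its difference from Trpm7, 0.23 ± 0.15 on the log2 scale, did not pass (limma adjusted p = 0.14). As CPM without length, Trpm7 was the higher of the 2 (log2 Trpv4 minus Trpm7 −0.86, limma adjusted p = 4.3e-10).

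**Figure D2:**
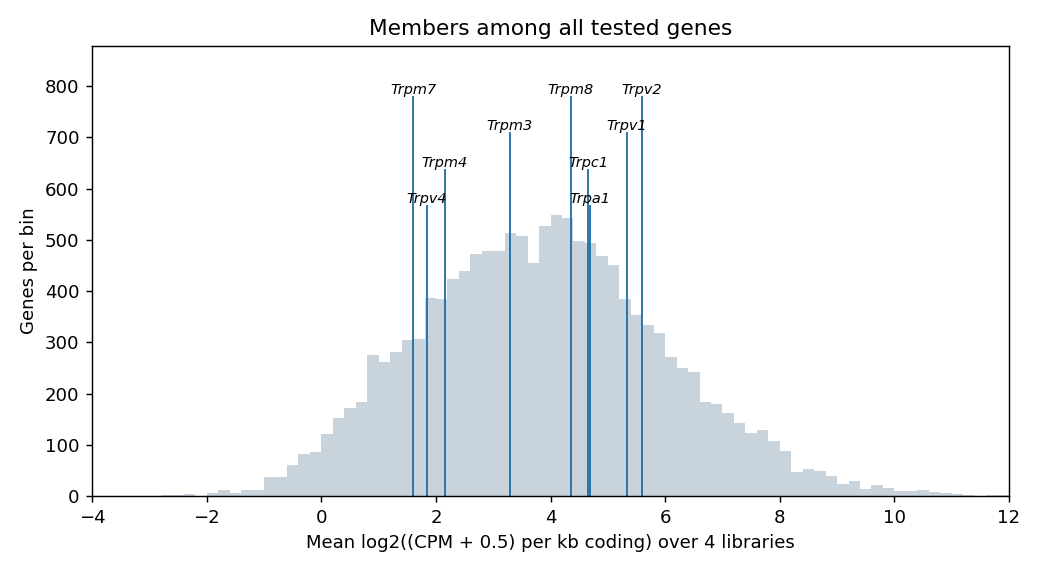
Histogram of the mean log2((CPM + 0.5) per kb) of all 14128 tested genes over 4 libraries, with a line at each member. Trpv2 and Trpv1 lie on the upper slope, Trpm8, Trpa1 and Trpc1 above the centre, Trpm3 below it, and Trpm4, Trpv4 and Trpm7 on the lower slope.

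By mean CPM per kb, the members ran Trpv2, Trpv1, Trpc1, Trpa1, Trpm8, Trpm3, Trpm4, Trpv4 and Trpm7. On the log2 scale of the tests, Trpc1 minus Trpa1 was −0.04 ± 0.58. Of the 8 pairs of neighbours, 5 passed the limma test with the first gene higher. The pairs and their direction were set by the levels in the same libraries, so these tests are no independent check of the order. The adjustment was over genes and does not cover the choice of pairs. For each of the 5 pairs the exact sign-flip test gave p = 0.13, the lowest it can give. The steps with the smallest limma adjusted p were Trpm8 over Trpm3 (2.08-fold) and Trpm3 over Trpm4 (2.2-fold), with limma adjusted p of 7.4e-12 and 6.4e-22, both in 4 of 4 libraries and with no overlap. In the moderated t test with the prior from the fit of levels, the adjusted p was 3.8e-06 and 8.9e-06. The sizes of both steps depend on the length used. On the log2 scale, Trpm8 minus Trpm3 was 1.06 per kb of coding sequence, 0.41 without length and 2.78 with merged exons. Trpm3 minus Trpm4 was 1.14, 1.65 and 0.48 in the same order, and both steps passed each time. Trpm4 over Trpv4 (1.24-fold) had a limma adjusted p of 0.015 but did not pass the t test with the other prior (adjusted p = 0.064). It also lost the limma call without replicate 1 or 3 (limma adjusted p = 0.059 and 0.065). Trpv1 over Trpc1, Trpc1 over Trpa1 and Trpv4 over Trpm7 did not pass (limma adjusted p = 0.15, 0.79 and 0.14). For Trpv1 over Trpc1 the t test with the other prior gave an adjusted p of 0.0089, although Trpc1 was the higher gene in replicate 4. With merged exons as length, all 3 of these pairs passed (limma adjusted p = 3.6e-05, 5.4e-23 and 8e-06). The log2 differences were 1.86 ± 0.69 for Trpv1 minus Trpc1, −1.43 ± 0.58 for Trpc1 minus Trpa1 and 0.61 ± 0.15 for Trpv4 minus Trpm7. As CPM without length, Trpc1 minus Trpa1 passed at −0.52 ± 0.58 (SD, n = 4, limma adjusted p = 0.00016), an SD larger than the difference. The lower member enters every difference of its fit, so these limma p-values rest on the prior variance as well as on the 4 libraries. As background, 20.8% of all tested genes were called above Trpv1, 20.9% above Trpc1, 29.1% above Trpa1, 34.6% above Trpm8, 54.6% above Trpm3, 74% above Trpm4, 78.2% above Trpv4 and 81.3% above Trpm7 in the same fits. For Trpm4 over Trpv4 the order turned with merged exons as length (log2 −0.62, limma adjusted p = 0.00019).

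**Figure D3:**
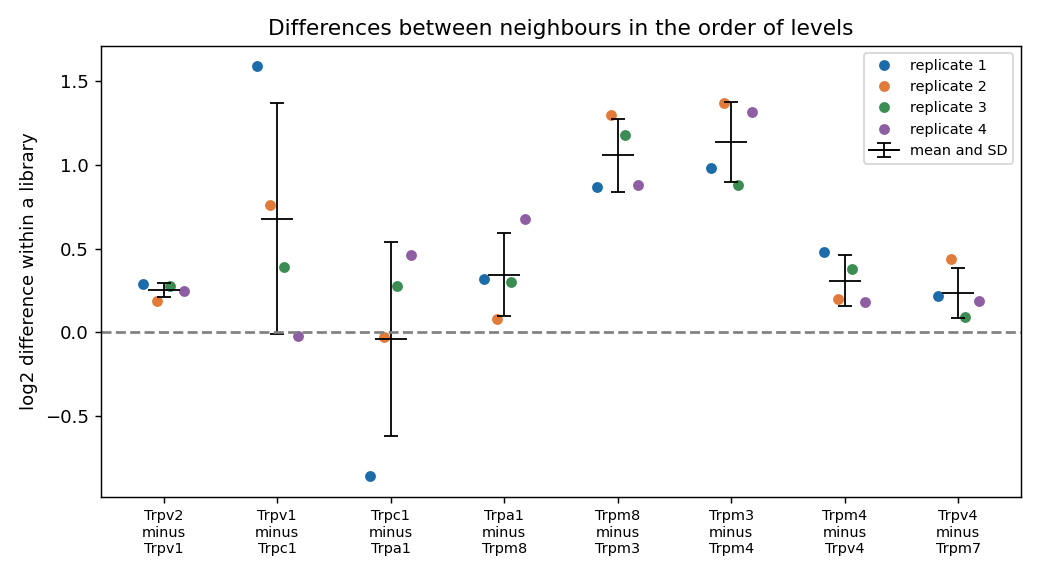
Difference in log2((CPM + 0.5) per kb) between neighbouring members within each library (1 point per library, bar at the mean with SD). All 4 points lie above 0 for every pair except the 2 that include Trpc1.

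Trpc1 (ENSMUSG00000032839.13, chromosome 9, 95705082 to 95750375, minus strand) differed between libraries far more than the other members. It had 178, 571, 1046 and 1026 reads in replicates 1 to 4, which is 12.8, 25.4, 29.5 and 40.6 CPM per kb. Replicate 1 was lowest and replicate 4 was highest, a 3.17-fold range, against 1.05-fold in Trpv2 and 1.40-fold in Trpm7, the widest of the others. The Wilson intervals of replicates 1 and 4 were 11 to 14.8 and 38.1 to 43.1 CPM per kb, so the gap exceeds counting error. Its log2 SD of 0.69 compared with 0.15 for genes of its CPM without length, a variance ratio of 21 (F test on limma's prior variance, adjusted p = 0.02). Only 0.885% of all tested genes passed this test, and Trpc1 was the one member that did. For the other 8 the adjusted p was 0.99 or 1. Leaving out replicate 1, 3 or 4 ended the call (adjusted p = 0.65, 0.07 and 0.064), with variance ratios of 5.14, 32 and 16.1 in the same order.

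The level of Trpc1 therefore rests on the libraries used. Its mean was 27.1 ± 11.5 CPM per kb, and its level, 1.76-fold that of the median gene, did not pass (limma adjusted p = 0.083). Without replicate 1 its log2 difference from the median gene was 1.15, and it passed (limma adjusted p = 2.1e-05). It also passed with every gene of at least 1 read compared (log2 1.64, limma adjusted p = 0.0074) and as CPM without length (log2 1.61, limma adjusted p = 0.02). Lars2, the mitochondrial leucyl-tRNA synthetase gene, which was picked after its values were seen, had the same order of libraries, at 4288, 8345, 10500 and 14530 CPM. How many other genes had this order was not counted. The mitochondrial ribosomal RNA mt-Rnr1 was also lowest in replicate 1, at 3658, 6872, 14530 and 12880 CPM, whereas mt-Rnr2 stood at 23520, 61450, 0 and 52080 CPM and was listed at 0 in replicate 3. The skeletal muscle marker sum was highest in replicate 1, at 4129, 942.7, 2113 and 1273 CPM, and so was the fibroblast sum, at 15840, 9207, 11200 and 11790 CPM. The macrophage, endothelial and adipocyte sums were highest in replicate 1 too, at 464.3, 277.9 and 279.2 CPM. The myelinating Schwann cell sum was highest in replicate 3 and the satellite glia sum in replicate 4. The pan-neuronal sum was lowest in replicate 1, at 8563, 9656, 10110 and 9306 CPM. The nociceptor sum was lowest in replicate 3 instead, at 4449, 4744, 4041 and 4247 CPM. The part of any of these in the Trpc1 values was not tested. Scaled by the pan-neuronal median, the variance ratio of Trpc1 was 10.9 and it still passed (adjusted p = 0.031). Of the 30-base words of the whole Trpc1 transcript, 99% occurred in no other annotated gene, and the rest were shared with 326 other genes.

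**Figure D4:**
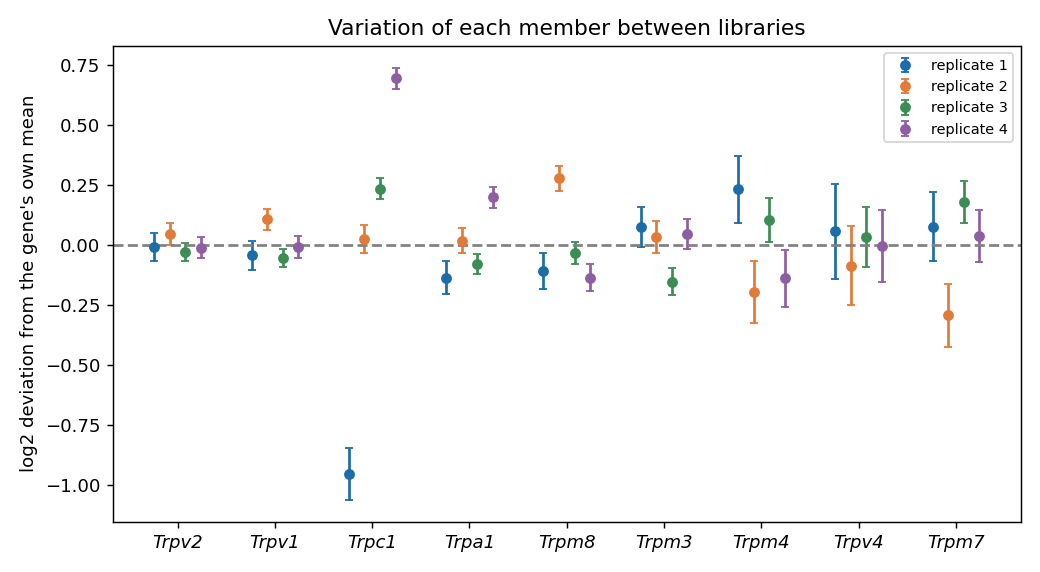
Deviation of each library from the gene's own mean, on the log2(CPM + 0.5) scale, with bars of 1 standard error of counting. Trpc1 runs from −0.95 in replicate 1 to 0.69 in replicate 4, while the points of the other members stay within 0.30 of 0.

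The other 8 members did not pass the variance test. Trpv2 and Trpv1 had coefficients of variation (CV) of 2.32% and 5.25%, Trpa1 10.5% and Trpm8 14.0%, where the median CV of tested genes at 10 CPM or more was 10.9%. The highest values of Trpa1 and Trpm8 fell in different libraries, replicate 4 and replicate 2. For Trpv4 the chi-square of reads per degree of freedom was 0.163 and for Trpv2 0.612, where sampling noise alone gives about 1, so their libraries differed no more than counting error. It was 2.75 for Trpv1, near the 2.99 of the median tested gene, and 9.13 and 12.1 for Trpa1 and Trpm8. Dividing by the pan-neuronal median did not narrow the spread of Trpv1, whose CV was then 8.97%, or that of Trpv2, at 8.13%. The 8 members other than Trpc1 summed to 445.8, 477.6, 441.5 and 461.2 CPM, a mean of 456.5 ± 16.4.

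The wider TRP family was compared through 19 further genes, of which 9 were detected, against 13558 of 22243 genes with a coding sequence. Of these 9, 2 lay above the median gene and 7 below it, against 46.1% and 46.3% of all tested genes. Mcoln1, which encodes a lysosomal channel, had 54.0 ± 4.52 CPM per kb, a higher mean than any member. By CPM without length the order turned, with 108.7 CPM for Trpv2 and 101.3 CPM for Trpv1, against 94.04 CPM for Mcoln1. Pkd2, the polycystin-2 gene, had 8.32 ± 1.13 CPM per kb, Trpc6 5.57 ± 0.602 and Trpm2, an oxidant-responsive channel gene, 4.10 ± 0.468. Trpc4, Trpc5, Trpm6 and Trpc7 had 1.52 ± 0.249, 1.497 ± 0.379, 0.625 ± 0.131 and 0.533 ± 0.0109 CPM per kb.

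The 10 undetected family genes were Pkd2l2, Mcoln2, Pkd2l1, Mcoln3, Trpv3, Trpm1, Trpm5, Trpv5, Trpv6 and Trpc2. Trpv3, a warmth-sensitive channel gene of skin, had 7 reads over all libraries, and the calcium-absorption channel genes Trpv5 and Trpv6 had 1 read each. Trpc2 had 0 reads in every library, which allows up to 0.205 CPM in the deepest and 0.523 CPM in the shallowest. Its coding sequence is only 0.5% unique, since it overlaps Xntrpc, which stood at 1.44 ± 0.142 CPM, so reads of Trpc2 could have been assigned there.

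Of the summed level per kb of all 28 family genes, the 9 members took 62.1%, 63.6%, 62.3% and 65.5% in replicates 1 to 4. Per kb, Mcoln1 had the largest single share, 18.8 ± 1.11%, followed by Trpv2 at 16.8 ± 0.965% and Trpv1 at 14.1 ± 0.778%. Trpv1, Trpa1 and Trpm8 together took 30.2 ± 1.37%. The share of Trpc1 was 4.86%, 8.59%, 10.2% and 13.5% in replicates 1 to 4, while those of Trpa1 lay between 8.46% and 9.86%. By CPM without length, the members' share was 68.1 ± 1.26%, and the leading shares turned to 14.2% for Trpv2 and 13.2% for Trpv1, against 12.3% for Mcoln1.

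**Figure D5:**
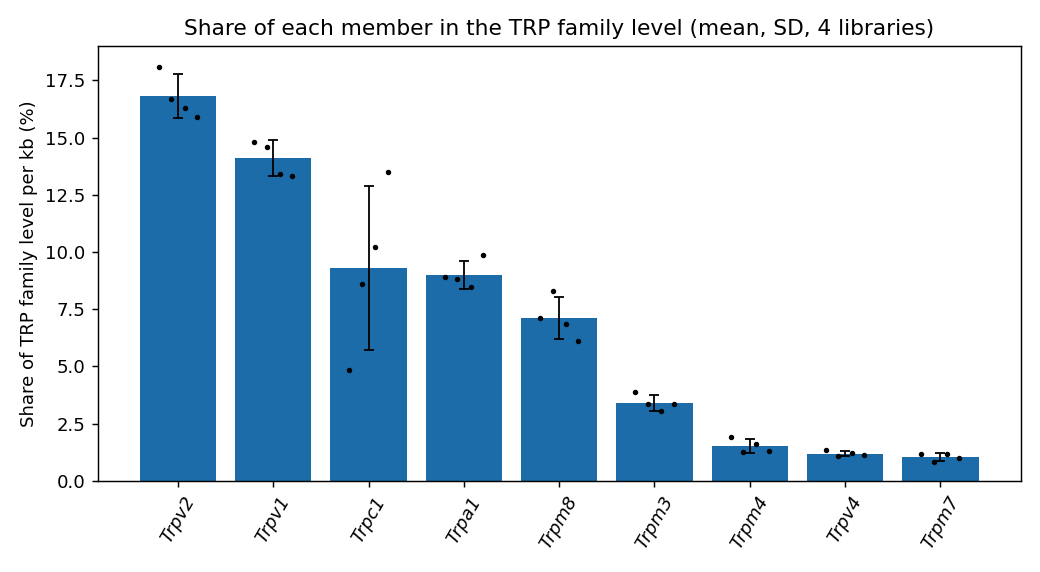
Share of each of the 9 members in the summed CPM per kb of all 28 family genes, in percent (bars are means, lines SD, points the 4 libraries). Trpv2 (16.8%) and Trpv1 (14.1%) have the largest shares of the 9, and Trpc1 has the widest spread (4.86% to 13.5%).

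Of 19 listed genes known to regulate, anchor or couple to TRP channels, 17 were detected, against 13558 of 22243 genes with a coding sequence. Of these 17, 13 lay above the median gene and 4 below it, with a median log2 difference of 1.62, against 46.1% and 46.3% of all tested genes. Pirt, which encodes a membrane protein of sensory neurons that binds phosphoinositides and increases TRPV1 and TRPM8 activity, had 541.6 ± 51.6 CPM per kb. Lower levels were found for the caveolin gene Cav1 at 277 ± 48.2, the phospholipase gene Plcb3 at 132 ± 7.63, the protein kinase C gene Prkca at 119 ± 21.7 and Trpc4ap, which encodes a TRPC4-associated protein, at 97.5 ± 6.78 CPM per kb. Akap5, an anchoring protein gene, and Bdkrb1, the inducible bradykinin receptor gene, were not detected, with means of 0.917 ± 0.239 and 0.173 ± 0.151 CPM.

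Among 13548 detected coding genes, those nearest in level to Trpv1 over the 4 libraries were Hdac11 and Lmbrd2, with root mean square log2 differences of 0.019 and 0.034. Hdac11, a histone deacetylase gene, had 40.3 ± 2.47 CPM per kb. The nearest to Trpa1 were Rnmt, an mRNA cap methyltransferase gene, and Oxsr1, a kinase gene, at 0.039 and 0.063. The nearest to Trpm8 were Tubgcp2, a gamma-tubulin complex gene, and Mthfsd, at 0.047 and 0.056. These describe near levels in 4 libraries of 1 condition.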

How the data were processed

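The members and lists were chosen with earlier results of these data known. Ribosome-bound RNA was spun through size-exclusion columns and depleted of rRNA before gel selection of 28 to 34 nt, per the labels' protocols. Programs named in the submitters' processing notes were Cufflinks 2.2.1, Bowtie2 2.2.9, TopHat2 2.1.1 and FastQC 0.11.5. Their roles, the counting rule and the use of strand are unknown from the sources used here. Though named TPM, the values that the authors deposited sum to 1000000 per library, and 96.5% to 96.8% of those above 0 are multiples of a single step within 0.05 reads, whatever the gene's length. The deposited values were therefore used as CPM, which the authors scaled to the library total with no length term, as the values show, and the step gave reads and depth. Wilson intervals cover counting error only. As the other values were not whole, the planned count model and TMM scaling were not run.

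Gene identifiers were matched without version to GENCODE M21 (48052 matched, 379 not). limma 3.58.1 in R 4.3.3 was run on log2((CPM + 0.5) per kb of the longest coding sequence), keeping coding genes that averaged 1 CPM or more. It tested each gene against the median gene and against a member. Variance was tested on log2(CPM + 0.5), without length, by an F test against limma's trended prior for genes of the same CPM. Benjamini-Hochberg adjustment was over all tested genes. Median chi-squares for pairs of libraries ran from 1.49 to 2.33, against 0.455 for sampling noise, so the libraries differed by more than counting error. All 4 were treated as replicates, though this cannot show whether they came from separate animals. That 0% of values above 0 were identical decides nothing, since the CPM of 1 read differs between libraries. The tests were also run on simulated counts, drawn independently with a fixed dispersion. These libraries need not follow that setting, so the simulation does not vouch for the p-values given here. Named genes were the members, the TRP family list, the 6 highest and any undetected regulators, and the 2 genes nearest in level to Trpv1, Trpa1 and Trpm8, some of which are not reported here. Lars2, mt-Rnr1, mt-Rnr2 and genes overlapping a member were added after their values were seen. Alternatives covered pseudocounts, filters, lengths, the median used, scalings, the prior variance and leaving out each library.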

Additional observations from a re-analysis of the deposited data

How the results depend on the processing

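No paired analysis was possible because there was 1 group. The count model and TMM scaling were not run. Without length, the Trpm3 level against the median gene turned to 1.34 on the log2 scale and Trpv4 minus Trpm7 to −0.86, and the 9 members' share of the family became 68.1%. With merged exons as length, Trpv2 minus Trpv1 turned to −0.18 and Trpm4 minus Trpv4 to −0.62. With no filter other than 1 read, Trpm3 turned to 0.28. Against coding genes at 10 CPM or more, 2 members lay above the median, with Trpc1 at −0.04, Trpa1 at 0 and Trpm8 at −0.34. Of all 14128 tested genes, 4368 lay above it. These shifts follow from the lengths and genes that each alternative uses. Leaving out each library in turn, neighbouring pairs with the first member higher numbered 2 to 5, members with excess variance 0 to 1, and tested genes with excess variance 56 to 104, against 125 with all 4. Trpc1 minus Trpa1 ran from −0.2 to 0.23, turning without replicate 1, and the share of the 9 members stayed at 62.7% to 63.8%. The cause of these changes was not tested. The prior variance from the fit of levels was an alternative chosen after seeing the data. Trpv4, at 53 reads in the shallowest library, is the member most limited by depth.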
